A study of Homo sapiens with 24 samples.

Results

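UT-7 is a human megakaryoblastic leukemia line that grows only with a hematopoietic growth factor in the medium. The comparison described here sets UT-7 cells that received 3 mM cyclocreatine for 24 h against UT-7 cells that received vehicle for the same 24 h. Its members are the libraries labelled as UT-7, which are 8 of the 24 in the study, with 4 per group. The remaining libraries are 8 of TF-1, an erythroleukemia line, and 8 of UCSD-AML1, a myeloid line with a chromosome rearrangement at MECOM, each with 4 cyclocreatine and 4 vehicle libraries at the same dose and time. All lines were described by the submitters as acute myeloid leukemia driven by EVI1, the product of MECOM, and the study's title names the creatine kinase pathway as a target in such leukemia. As a model UT-7 is a single established line, and the labels do not say whether its replicates were separate cultures. The p-values below therefore rest on the spread between libraries of a group, pooled over all 24 libraries, and that spread may be technical.

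Creatine enters cells through the transporter SLC6A8 and is phosphorylated by creatine kinases, which move high-energy phosphate between sites where adenosine triphosphate is made and sites where it is used. Cyclocreatine is a creatine analog that these kinases also phosphorylate, giving a phosphagen that returns its phosphate more slowly. UT-7 cells depend on receptors of the erythropoietin and granulocyte-macrophage colony-stimulating factor type, which signal through the kinase JAK2 to STAT5 and, in parallel, through RAS and the MAP kinases. Genes such as CISH, PIM1 and the SOCS family are read out of the STAT branch, and the ETS factors, dual-specificity phosphatases and cyclin D1 out of the MAP kinase branch.

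The UT-7 libraries held 12794998 to 13891082 counts with cyclocreatine and 12874459 to 15115540 with vehicle, and 16729 to 16929 and 16603 to 16921 genes had at least 1 count. Markers fixed for the lineage were present. GATA1, the erythroid and megakaryocytic master factor, stood at 244 and 267 CPM (counts scaled to a common library size with TMM factors, the unit of all levels below) with cyclocreatine and vehicle, and the platelet integrin ITGA2B at 1094 and 893. The stem cell factor receptor KIT, listed with the stem and progenitor regulators, stood at 729 and 864. Several markers of other cells were at or near 0: CD14 had 5 counts over each group, ELANE 1 and 7, MPO 0.0897 and 0.0539 CPM, and CD3E, MS4A1, CDH5, COL1A2 and DCN had 0 in all 8 libraries. The granulocyte and monocyte list as a whole was not absent. Its summed level was 473.6 to 496.3 CPM with cyclocreatine and 508.3 to 525.6 CPM with vehicle. The megakaryocyte products PF4 and GP1BB were also at 0. MECOM was scarce in UT-7, at 3.89, 3.70, 3.82 and 3.69 CPM with cyclocreatine, against 6.48, 7.24, 5.45 and 6.19 CPM with vehicle. The groups did not overlap, and the decrease passed (log2 fold change -0.74 ± 0.23, adjusted p = 0.0105 in edgeR's quasi-likelihood test). Of the other lines, UCSD-AML1 averaged 339 and 412 CPM.

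The treatment separated the UT-7 libraries along the first principal component, which held 53.4% of the variance, while the second held 8.43%. On the second, cyclocreatine replicate 2 lay farthest out, at 21.87, against -1.97, -9.852 and -10.24 for cyclocreatine replicates 1, 3 and 4. When pairs of libraries were compared count by count, cyclocreatine replicate 3 stood somewhat apart. Its counts differed from those of the other cyclocreatine libraries by a chi-square of 2.67 to 3.78 per degree of freedom, and all other pairs within a group lay between 1.29 and 1.90, so that no library was a copy of another. Results that change without it are given with and without it. Ribosomal protein genes took 6.90% to 7.47% of the counts with cyclocreatine and 5.91% to 6.15% with vehicle, a shift that moves with every comparison below and whose part in them was not tested.

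Of 14588 genes tested, 6689 (45.9%) were called at an adjusted p under 0.05, 3285 (22.5%) higher with cyclocreatine and 3404 (23.3%) lower. Those shares are the background for each gene group below: a group whose members are called at about those shares is like the whole table. Most called changes were small. Their median size was 0.35 on the log2 scale, or 1.28-fold, and 5041 of them (75.4%) were below 1.5-fold, while 323 genes (2.21%) rose and 273 (1.87%) fell by at least 2-fold. In 6913 genes (47.4%) the 4 cyclocreatine libraries lay wholly on one side of the 4 vehicle libraries, 6115 of them among those called. Most called genes thus had separate groups. In a gene named below for its small p, or once its values were seen, separate groups follow largely from that choice. Without cyclocreatine replicate 3, 3130 genes were higher and 3172 lower. When libraries were scaled by their totals alone, 2810 genes were higher and 3924 lower, and the median gene then stood at -0.0283 on the log2 scale.

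**Figure D1:**
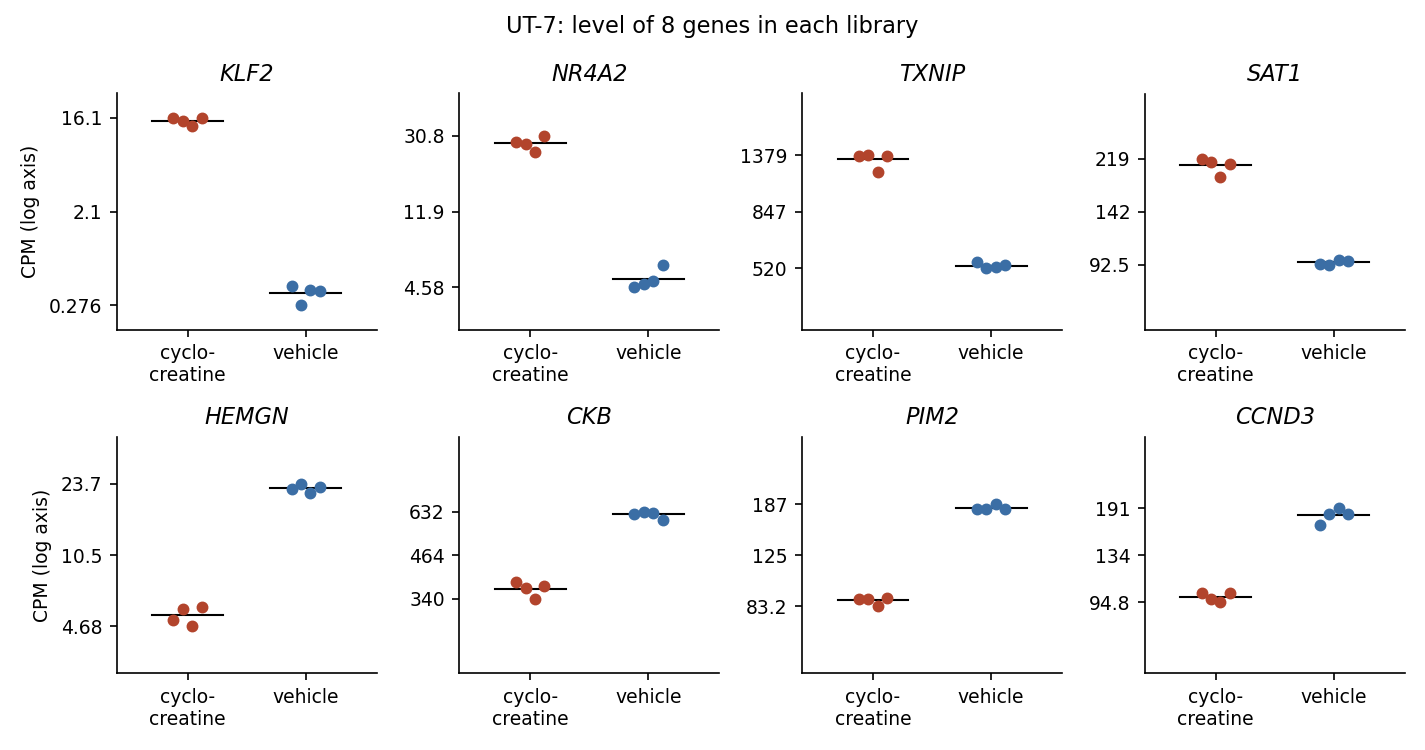
CPM on a log axis of 8 genes in the 8 UT-7 libraries, cyclocreatine libraries left of vehicle libraries, with 1 point per library and a line at the group mean. In each of the 8 genes the 4 cyclocreatine libraries lie wholly on one side of the 4 vehicle libraries, with KLF2, NR4A2, TXNIP and SAT1 higher and HEMGN, CKB, PIM2 and CCND3 lower.

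Among the genes that handle creatine, the transporter and a cytosolic kinase fell. SLC6A8 had 13.7, 13.4, 7.42 and 9.73 CPM with cyclocreatine, against 34.6, 32.2, 29.1 and 31.6 CPM with vehicle. The groups were far apart, and within the cyclocreatine group replicates 3 and 4 were the lowest. CKB, the brain-type creatine kinase of the cytosol, had 382, 368, 340.5 and 372 CPM with cyclocreatine, against 623, 632, 628 and 596 CPM with vehicle, again with no overlap (log2 fold change -0.76 ± 0.05, adjusted p = 1.93e-12). Muscle-type kinase CKM averaged 7.56 ± 0.422 CPM with cyclocreatine and 8.51 ± 1.43 CPM with vehicle and did not pass (adjusted p = 0.277). The synthesis enzymes were scarce. GAMT, which methylates guanidinoacetate to creatine, averaged 2.11 ± 0.291 and 1.94 ± 0.388 CPM, and GATM, the enzyme before it, 0.112 ± 0.0798 and 0.206 ± 0.0948 CPM. Neither passed (adjusted p = 0.649 and 0.36). The mitochondrial kinases CKMT1A and CKMT1B, a near-identical pair, had 0 counts in all 8 libraries, which sets no limit on their level because reads shared by both may not have been counted, and the sarcomeric CKMT2 had 22 counts in each group. The whole list had 0 of 5 tested members higher and 2 lower, with a median log2 fold change of -0.76, against 0.00 over all genes tested.

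Among called genes at a mean of 5 CPM or more whose groups did not overlap, the largest increases were led by KLF2. Separate groups were thus a condition of this choice and not a finding. This factor, a Krüppel-like factor that in lymphocytes and endothelium is associated with quiescence, was almost silent with vehicle. It had 15.98, 15.2, 13.6 and 16.1 CPM with cyclocreatine, against 0.423, 0.276, 0.381 and 0.373 CPM with vehicle. The fitted log2 fold change was 5.36 ± 0.19, a value that rests on few counts in the vehicle group. NR4A2 is an orphan nuclear receptor of the immediate early class. It had 28.3, 27.7, 25.1 and 30.8 CPM with cyclocreatine, against 4.58, 4.76, 4.95 and 6.04 CPM with vehicle (adjusted p = 1.74e-19). C5AR1, the receptor for complement fragment C5a, had 18.4, 18.9, 19.5 and 16.7 CPM with cyclocreatine, against 4.37, 4.89, 4.63 and 3.95 CPM with vehicle. FCER2, the low-affinity IgE receptor, had 56.5, 56.7, 51.7 and 56.0 CPM with cyclocreatine, of which replicate 3 was the lowest, against 17.5, 18.4, 15.8 and 15.9 CPM with vehicle. SPP1, the secreted matrix protein osteopontin, averaged 15.97 ± 0.886 and 4.96 ± 0.552 CPM, and the pseudokinase receptor PTK7 20.5 ± 1.56 and 6.20 ± 0.106 CPM with cyclocreatine and vehicle. AKR1C1, an aldo-keto reductase whose reads may be shared with its near-identical relatives, averaged 107 ± 4.77 and 29.7 ± 1.13 CPM. SGK1, a kinase of the phosphoinositide and glucocorticoid pathways, rose 3.10-fold, SESN3, a sestrin under FOXO control, 2.92-fold, and TSPYL2, a nucleosome assembly protein, 3.21-fold. The rest of the 15 with the largest rise at 5 CPM or more were HIST2H2BE (3.38-fold), DNHD1 (3.29-fold), GSDMB (3.07-fold), CACNA2D1 (2.87-fold) and CYP1B1 (2.77-fold).

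Among genes chosen in the same way, the largest decrease was in HEMGN, an erythroid nuclear protein. It had 5.04, 5.70, 4.68 and 5.83 CPM with cyclocreatine, against 22.4, 23.7, 21.2 and 22.8 CPM with vehicle (log2 fold change -2.08 ± 0.09, adjusted p = 1.16e-20). CHKA, the kinase that commits choline to phosphatidylcholine synthesis, had 27.6, 26.5, 28.8 and 28.4 CPM with cyclocreatine, against 85.1, 86.5, 86.2 and 88.9 CPM with vehicle. PTGIR, the prostacyclin receptor, had 14.9 ± 1.33 and 44.3 ± 3.53 CPM, and CD24, a surface glycoprotein, 8.20 ± 0.921 and 30.6 ± 2.29 CPM with cyclocreatine and vehicle. The water channel AQP1 fell 3.03-fold, the receptor phosphatase PTPRR 3.61-fold, and SLC2A6, a member of the glucose transporter family, 2.90-fold. FAM83A (3.52-fold), FAXDC2 (3.32-fold), SLFN14 (3.26-fold), FAM212B (3.00-fold), SLC6A8 (2.88-fold), the uncharacterised LOC101927482 (2.89-fold), the noncoding BGLT3 of the beta-globin locus (2.85-fold) and ZNF667-AS1 (2.90-fold) made up the 15. Strand was not given in the sources used here, so that reads of the antisense gene ZNF667-AS1 cannot be told from those of its partner.

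Measured as the difference in CPM rather than the fold, the 8 largest increases included 3 genes of translation. EEF1A1, the elongation factor that brings aminoacyl-tRNA to the ribosome, had 5228, 5311, 5028 and 5115 CPM with cyclocreatine, against 3832, 3767, 3733 and 3790 CPM with vehicle. EEF2, the translocation factor, rose 1.34-fold and RPS6, a small-subunit ribosomal protein, 1.21-fold. TXNIP, ferritin light chain FTL (1.31-fold), cytoplasmic actin ACTG1 (1.247-fold), and the nuclear proteins SRRM2 (1.49-fold) and NUCKS1 (1.498-fold) were the others. The largest decrease in CPM was in the transferrin receptor TFRC, with 1925, 2006, 2002 and 1921 CPM with cyclocreatine, against 3533, 3452, 3389 and 3568 CPM with vehicle. HPGD, which inactivates prostaglandins, fell 1.61-fold, SPN (CD43), the leukocyte sialoglycoprotein, 1.67-fold, and the RNA-binding proteins SFPQ and HNRNPM 1.77-fold and 1.56-fold. The noncoding LINC00657 fell 1.51-fold, CKB 1.695-fold, and PRKCSH, a subunit of glucosidase II, 1.08-fold. The PRKCSH change was small (adjusted p = 0.0153) and was not called without cyclocreatine replicate 2 or vehicle replicate 3.

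The Krüppel-like factors other than KLF2 went both ways. KLF6 (109.6 and 83.4 CPM with cyclocreatine and vehicle), KLF7 (23.2 and 12.7), KLF5 (4.75 and 2.90) and KLF11 (44.1 and 39.3) rose. KLF13 (129 and 169), KLF16 (55.5 and 72.3), the erythroid factor KLF1 (182 and 208), KLF9 (26.1 and 31.0) and KLF3 (52.7 and 58.6) fell. KLF10 (log2 fold change 0.08) and KLF12 (0.01) did not pass, and KLF4 had 0 counts. That is 5 higher and 5 lower of 14 tested, 4 lower without vehicle replicate 4, when KLF9 was not called, and 3 higher without vehicle replicate 2, since KLF5 and KLF11 were then not called. The KLF11 groups overlapped, and its call (adjusted p = 0.0461) was lost under 11 of the 15 alternative settings, among them each of 6 left-out libraries, library totals alone and the replicate block. In the NR4A family NR4A1 had 11.9, 11.3, 8.57 and 11.4 CPM with cyclocreatine, against 4.86, 5.72, 6.15 and 8.20 CPM with vehicle, and NR4A3 was near 0.

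Receptors and their proximal signal proteins shifted in composition rather than in one direction, with 10 of 22 tested members higher and 6 lower. The receptor chains that UT-7 uses were lower. CSF2RB, the common beta chain of the receptors for granulocyte-macrophage colony-stimulating factor, interleukin-3 and interleukin-5, had 381, 380.4, 379.7 and 382 CPM with cyclocreatine, against 569, 574, 576 and 567 CPM with vehicle. The erythropoietin receptor EPOR had 154, 152, 142 and 144 CPM with cyclocreatine, against 202, 206, 202 and 199.7 CPM with vehicle, and neither gene overlapped between groups. KIT fell 1.19-fold and JAK2 1.08-fold. CSF2RA, the ligand-specific alpha chain, averaged 13.6 ± 0.193 CPM with cyclocreatine and 16.4 ± 0.763 CPM with vehicle (adjusted p = 0.0147, not called without vehicle replicate 1). Other chains were higher, among them the common gamma chain IL2RG (104 and 75.7 CPM with cyclocreatine and vehicle), the kinase JAK1 (239 and 186), the phosphatase INPP5D, or SHIP-1 (368 and 287), and CSF3R, the granulocyte colony-stimulating factor receptor (2.59 and 1.01). STAT5A (log2 fold change -0.04 ± 0.03) and STAT5B (0.08 ± 0.03) did not pass.

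Downstream of the receptors, JAK-STAT target genes fell. Of 14 tested, 12 were lower and 0 higher, with a median log2 fold change of -0.50, against 0.00 over all genes. SOCS3, a feedback inhibitor of the receptor kinases, had 20.6, 19.0, 16.1 and 19.7 CPM with cyclocreatine, against 42.3, 41.8, 44.3 and 40.2 CPM with vehicle. PIM2, a survival kinase, had 87.9, 88.2, 83.2 and 89.1 CPM with cyclocreatine, against 179.9, 179.9, 187 and 179.7 CPM with vehicle. CISH, another feedback inhibitor, had 16.1, 17.3, 17.4 and 18.2 CPM with cyclocreatine, against 27.2, 28.0, 30.4 and 30.5 CPM with vehicle (log2 fold change -0.75 ± 0.07, adjusted p = 8.53e-12). In none of these genes, which were picked for their small p, did the groups overlap. The cytokines LIF (196 and 320.3 CPM with cyclocreatine and vehicle) and OSM (40.6 and 69.6) and the AP-1 subunit JUNB (49.8 and 76.0) fell as well. PIM1 (1.21-fold), PIM3 (1.31-fold), ID1 (1.23-fold), SOCS1 (1.24-fold), SOCS2 (1.16-fold) and the survival gene BCL2L1 (1.09-fold) were lower by less. MCL1 did not pass, at 269.8 ± 6.22 CPM with cyclocreatine and 278 ± 3.37 CPM with vehicle, and CCND2 was near 0.

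The promoter of CISH shows the kind of sequence that STAT5 reads, a palindrome with the letters TTCNNNGAA, and is printed because CISH is a target gene that fell. The 250 bases before its start, at chr3:50611775-50612024 on the minus strand of GRCh38.p14, were taken from RefSeq and held 4 matches, whose bases are in capitals and which begin 241, 230, 129 and 112 bases before the start.
CISH: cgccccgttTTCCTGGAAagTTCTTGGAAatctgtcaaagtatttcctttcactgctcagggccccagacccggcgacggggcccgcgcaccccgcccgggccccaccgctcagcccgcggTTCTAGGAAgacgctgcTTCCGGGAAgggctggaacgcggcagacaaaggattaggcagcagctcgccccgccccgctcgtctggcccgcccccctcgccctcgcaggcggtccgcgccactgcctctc
Of all 27305 promoters of that length searched, 6.78% held at least 1 match, and 4 promoters (0.0146%) held 4 or more. The motif reads the same on both strands. Among the 9 JAK-STAT targets with a promoter in the table, CISH alone held a match. A match describes the letters and is not a binding site shown in these cells.

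Immediate early genes and MAP kinase feedback genes divided. Of 24 tested, 11 fell and 5 rose, with a median of -0.40. The growth gene MYC had 371, 355, 353 and 363 CPM with cyclocreatine, against 569, 589, 591 and 563 CPM with vehicle, and cyclin D1, CCND1, 161, 162, 180 and 165 CPM with cyclocreatine, against 274, 289, 292 and 284 CPM with vehicle. Both were lower in every cyclocreatine library than in any vehicle library. The ETS factor ETV4 (2.14-fold), the AP-1 subunit FOSL1 (1.68-fold), the feedback inhibitors SPRY1 (1.65-fold) and SPRED2 (1.56-fold), and the phosphatases DUSP2 (1.66-fold) and DUSP5 (1.45-fold) fell with them. JUN, a stress-responsive AP-1 subunit, went the other way, with 46.4, 43.8, 44.4 and 43.0 CPM with cyclocreatine, against 26.7, 24.9, 22.9 and 25.6 CPM with vehicle. DUSP1 (5.91 and 3.01 CPM with cyclocreatine and vehicle), ETV5 (42.5 and 36.8), IER3 (6.15 and 4.41) and FOS (3.50 and 1.96) were the other members called higher. That count fell to 3 without cyclocreatine replicate 1 or 4 or vehicle replicate 1 or 2, and with library totals alone, since ETV5, IER3 and FOS sat close to the threshold.

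Genes of the MYC network and of ribosome assembly were mostly lower. Of 35 genes of MYC, its partners and ribosome biogenesis, 25 fell and 4 rose, with a median of -0.22. UBTF, the factor that opens ribosomal DNA for RNA polymerase I, had 117, 121, 122 and 118 CPM with cyclocreatine, against 224, 221, 219.8 and 215 CPM with vehicle. The nucleolar proteins NOP58 (1.35-fold), MYBBP1A (1.44-fold), DKC1 (1.22-fold) and the MYC partner MAX (1.36-fold) were lower. Of the 4 that rose, 3 encode MXD proteins, which compete with MYC for MAX. MXD1 had 110.3, 117, 118 and 113 CPM with cyclocreatine, against 56.9, 58.3, 54.6 and 54.9 CPM with vehicle, and MXD3 and MXD4 rose 1.85-fold and 1.59-fold. The other was the abundant nucleolar chaperone NPM1 (1.18-fold).

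Ribosomal protein genes themselves moved upward together. Of 77 tested, 75 were higher and 0 lower, with a median log2 fold change of 0.31, and their summed level was 67850 to 73930 CPM with cyclocreatine and 56670 to 59030 CPM with vehicle. RPL13A had 361, 341, 310.4 and 349 CPM with cyclocreatine, against 231, 230.1, 237 and 229.5 CPM with vehicle, and RPS2, RPS23 and RPL26 rose 1.34-fold, 1.32-fold and 1.31-fold. Ribosomal protein messages share a pyrimidine tract at their start that couples their use to nutrient signalling, and they have many processed pseudogenes, which makes the level of any single member uncertain. RPL21, which exists in further copies, had 1 count with cyclocreatine and 1 with vehicle and was not tested.

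Genes of the G1/S transition and DNA replication fell and genes of G2 and mitosis rose. Of 44 G1/S genes 34 were lower and 2 higher (median -0.27), and of 36 G2/M genes 27 were higher and 1 lower (median 0.27). In MCM3, a subunit of the replicative helicase, the libraries had 352, 347, 363 and 354 CPM with cyclocreatine, against 556, 545, 565 and 557 CPM with vehicle. MCM7 and MCM4 of the same ring fell 1.53-fold and 1.44-fold, and MCM6 1.15-fold. SLBP, which binds histone messages in S phase, RRM2, the regulatory subunit of ribonucleotide reductase, and the sliding clamp PCNA fell 1.52-fold, 1.49-fold and 1.41-fold. Cyclin E2, CCNE2, had 22.7, 21.4, 19.4 and 21.8 CPM with cyclocreatine, against 39.4, 39.7, 39.3 and 40.4 CPM with vehicle. The members higher were the clamp loader subunit RFC5 (0.35 ± 0.05 on the log2 scale) and the polymerase delta subunit POLD3 (0.13 ± 0.05). Without cyclocreatine replicate 1, 2 or 4 or vehicle replicate 2, 3 or 4 only RFC5 was called higher.

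On the mitotic side CCNB1, cyclin B1, had 260.1, 262, 233 and 252 CPM with cyclocreatine, against 182, 185, 182 and 182 CPM with vehicle, with no overlap. The kinesin KIF2C (1.32-fold), the spindle midzone protein PRC1 (1.28-fold), the spindle proteins DLGAP5 (1.32-fold) and TPX2 (1.251-fold), the anaphase activator CDC20 (1.42-fold) and the kinases AURKB (1.41-fold) and PLK1 (1.21-fold) rose. The spindle kinesin KIF11 was the member that fell (110.1 and 127 CPM with cyclocreatine and vehicle, log2 fold change -0.21 ± 0.04). No change in either list reached 2-fold. In bulk RNA a different share of cells in a phase and a different amount of the message per cell cannot be told apart.

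**Figure D2:**
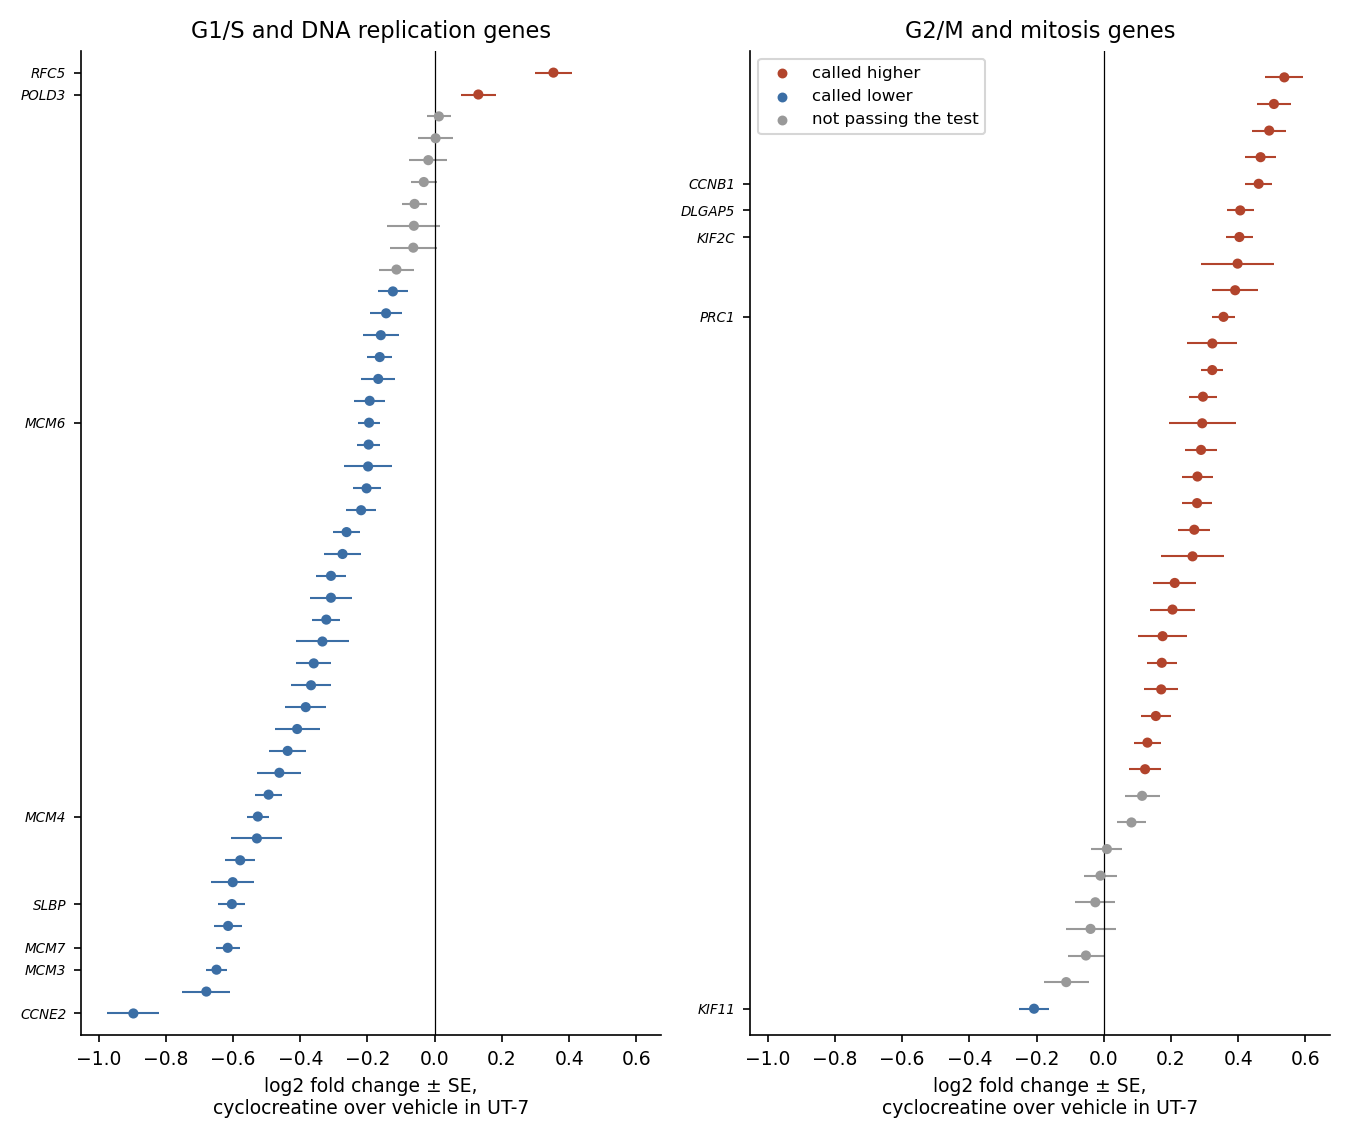
Log2 fold change (cyclocreatine over vehicle) with its SE for every tested member of the G1/S and DNA replication list and of the G2/M and mitosis list in UT-7, 44 and 36 genes, with names beside some of them. Most G1/S members lie left of 0 and most G2/M members right of it, with medians of -0.27 and 0.27.

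Each list was searched for 1 kind of promoter element, which was not counted in the other list. Replication genes are classical targets of E2F factors, and mitotic genes of a complex that reads the cell cycle homology region, TTTGAA. Searching both strands of the 250 bases before each start for TTTGGCGC, TTTCCCGC or TTTCGCGC, 15 of the 37 G1/S members with a promoter in the table held a match (40.5%), against 2.38% of all promoters. TTTGAA was found in 17 of 31 G2/M members (54.8%), against 13.6% of all promoters. MCM6 and MCM7 are shown for E2F and PRC1 for the mitotic element, with the matches in capitals. RefSeq places them on the minus strand of GRCh38.p14 at chr2:135876444-135876693, chr7:100101398-100101647 and chr15:90994536-90994785.
MCM6: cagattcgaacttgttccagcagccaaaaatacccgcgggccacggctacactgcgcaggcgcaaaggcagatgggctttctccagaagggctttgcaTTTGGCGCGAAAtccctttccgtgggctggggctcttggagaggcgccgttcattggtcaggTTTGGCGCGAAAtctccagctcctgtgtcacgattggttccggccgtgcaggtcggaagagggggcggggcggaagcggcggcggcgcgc
MCM7: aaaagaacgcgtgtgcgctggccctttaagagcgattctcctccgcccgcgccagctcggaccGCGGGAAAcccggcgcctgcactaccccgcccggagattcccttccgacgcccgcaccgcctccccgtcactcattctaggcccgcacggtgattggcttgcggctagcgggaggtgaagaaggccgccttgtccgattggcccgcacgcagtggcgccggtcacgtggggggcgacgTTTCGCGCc
PRC1: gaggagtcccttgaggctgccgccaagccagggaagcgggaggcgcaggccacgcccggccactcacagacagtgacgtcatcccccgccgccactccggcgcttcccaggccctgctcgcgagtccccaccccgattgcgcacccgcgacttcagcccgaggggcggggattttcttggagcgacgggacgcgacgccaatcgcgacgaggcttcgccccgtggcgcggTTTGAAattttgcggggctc
In MCM6 the letters occur 4 times, as pairs that overlap on opposite strands at 152 and 148 and at 90 and 86 bases before the start. MCM7 holds them at 187 and 9 bases and PRC1 holds its element at 20 bases. MCM7 fell more than MCM6 (-0.62 ± 0.04 and -0.20 ± 0.03 on the log2 scale).

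Regulators of entry into the cycle changed in both directions. CCND3, cyclin D3, had 101, 96.8, 94.8 and 102 CPM with cyclocreatine, against 168, 183, 191 and 183 CPM with vehicle. CDKN1B, the inhibitor p27, had 93.2, 93.9, 82.9 and 94.6 CPM with cyclocreatine, with replicate 3 the lowest, against 59.0, 57.4, 58.9 and 55.4 CPM with vehicle. CDKN1C, the inhibitor p57, had 9.79, 10.7, 7.85 and 7.82 CPM with cyclocreatine, against 2.89, 3.58, 2.92 and 3.95 CPM with vehicle. In all 3 genes the groups were separate. CDKN2C, or p18, rose 1.34-fold, and CCNG1 and CCNG2, the G-type cyclins, 1.47-fold and 1.95-fold. CDKN1A, or p21, fell 1.34-fold and CDKN2D, or p19, 1.64-fold, while CDKN2A and CDKN2B had 0 counts in all 8 libraries. Among p53 targets 8 of 24 were higher and 8 lower: TP53INP1 (1.87-fold), DDB2 (1.54-fold) and BAX (1.28-fold) rose, and BTG2 (1.66-fold), AEN (1.502-fold) and TRIAP1 (1.40-fold) fell.

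**Figure D3:**
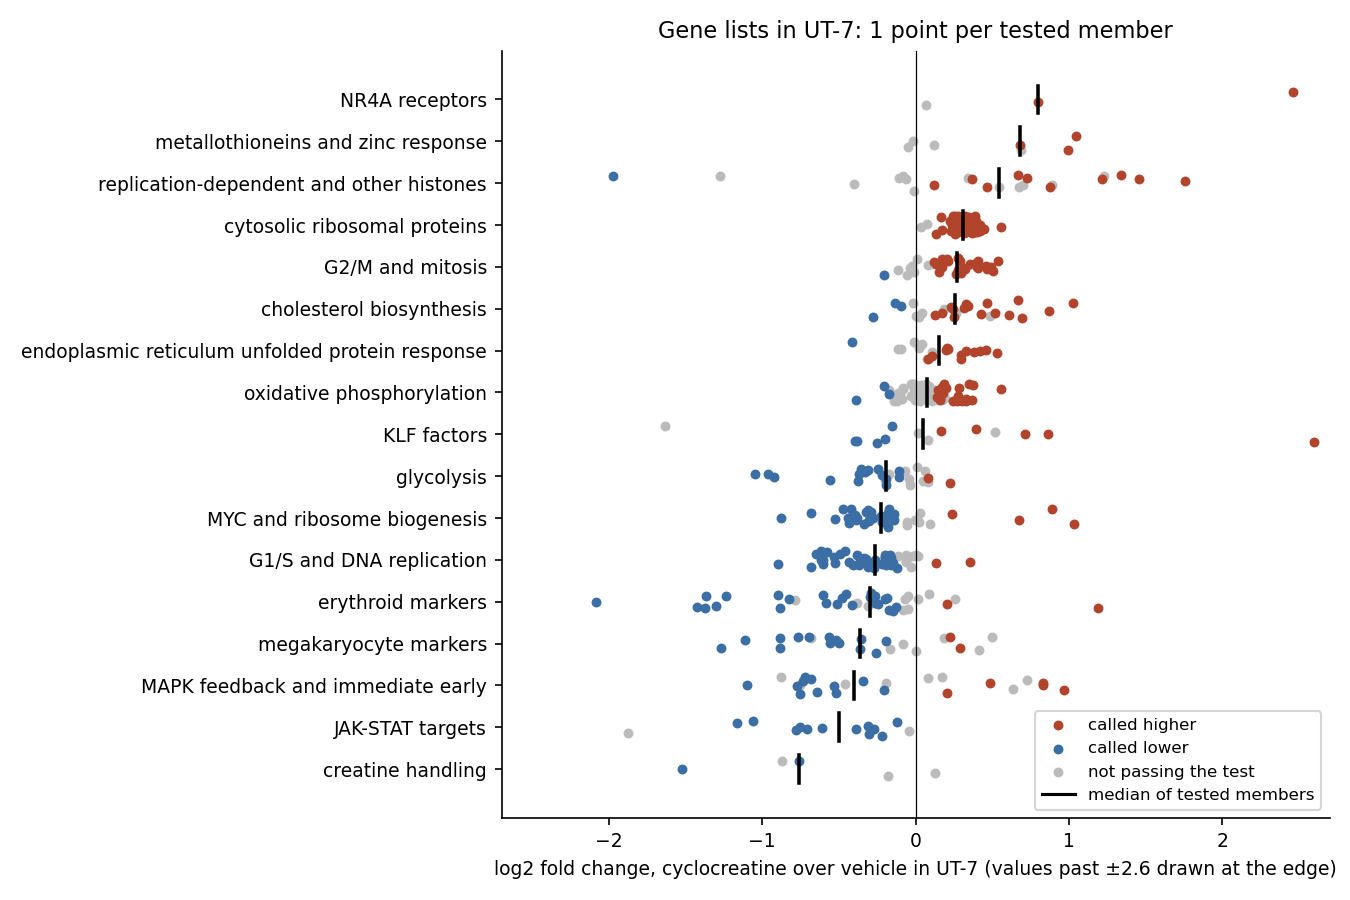
Log2 fold change (cyclocreatine over vehicle) of each tested member of 17 gene lists in UT-7, 1 point per gene, with a black tick at the list's median and KLF2 drawn at the edge of the axis. Ribosomal protein, G2/M and cholesterol genes lie mostly right of 0, and JAK-STAT, G1/S, erythroid and megakaryocyte genes mostly left of it.

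Erythroid genes fell, with 25 of 37 lower, 2 higher and a median of -0.30. SLC25A37, mitoferrin, which carries iron into mitochondria, had 121, 125, 115 and 119 CPM with cyclocreatine, against 223, 229.7, 227 and 214 CPM with vehicle. GFI1B, a repressor needed in both the erythroid and megakaryocytic lineages, had 70.7, 66.2, 67.2 and 69.4 CPM with cyclocreatine, against 120.4, 131, 130.3 and 124 CPM with vehicle. Both had separate groups. The globin chaperone AHSP (4.10 and 10.1 CPM with cyclocreatine and vehicle) and the anion exchanger SLC4A1 (1.56 and 4.06) fell at low levels, and GATA1 fell 1.09-fold (adjusted p = 0.0123, not called without cyclocreatine replicate 3). The fetal globins HBG1 (1345 ± 109 CPM with cyclocreatine and 1265 ± 19.8 CPM with vehicle) and HBG2 (566 ± 48.7 and 585 ± 24.2), near-identical genes, had log2 fold changes of 0.09 ± 0.08 and -0.05 ± 0.08 and did not pass, and cyclocreatine replicate 3 stood apart in both. TMCC2 (1.15-fold) was 1 of the 2 that rose.

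Heme synthesis and iron genes had 13 of 25 lower and 7 higher. Of the heme pathway UROS, PPOX and FECH fell 1.48-fold, 1.43-fold and 1.19-fold. For iron, the uptake side, TFRC and the divalent metal carrier SLC11A2 (-0.59 on the log2 scale), was lower, and the storage side, FTH1 and FTL, was higher (1.32-fold and 1.31-fold). HMOX1, which degrades heme, had 5.11, 5.16, 3.53 and 5.19 CPM with cyclocreatine, against 1.27, 1.72, 1.40 and 1.56 CPM with vehicle, so that all cyclocreatine libraries were above all vehicle libraries at a low level.

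Megakaryocyte genes fell too, with 14 of 23 lower and 2 higher (median -0.36). PLEK, the platelet protein pleckstrin, had 22.2, 20.7, 22.9 and 20.2 CPM with cyclocreatine, against 50.1, 51.6, 53.5 and 52.7 CPM with vehicle. The scavenger receptor CD36 (1.702-fold), the factor RUNX1 (1.43-fold), the integrin ITGB3 (1.62-fold) and thrombospondin THBS1 (2.17-fold) fell, while ITGA2B (1.22-fold) and the thrombin receptor F2R (1.17-fold) rose. Among stem and progenitor regulators 3 of 18 were higher, the ETS factor ERG (1.62-fold), MYB (1.15-fold) and LMO2 (1.11-fold), and 6 were lower. Granulocyte and monocyte markers had 5 of 16 tested higher and 3 lower, and 5 lower without vehicle replicate 3. C5AR1, SPP1, CSF3R, ITGAM (1.23-fold) and LGALS3 (1.36-fold) rose and CD33 (1.22-fold), the factor SPI1 (1.23-fold) and FPR1 (2.48-fold) fell. The summed level of that marker list was 473.6 to 496.3 CPM with cyclocreatine and 508.3 to 525.6 CPM with vehicle. Of 13 lymphoid markers CD4 fell (1.15-fold) and none rose, and CD79B was called higher without cyclocreatine replicate 3. Lymphoid summed levels were 56.7 to 64.9 CPM with cyclocreatine and 66.5 to 73.6 CPM with vehicle. Of 9 stromal and epithelial markers the intermediate filament VIM rose, with 607, 606, 552 and 584 CPM with cyclocreatine, against 326, 320.3, 319.6 and 325 CPM with vehicle, and leukemic cells express it too. The markers of other cell types picked out earlier for being at or near 0 are not all of those fixed.

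TXNIP, which restrains glucose uptake and binds thioredoxin, is the best-known target of the glucose sensors MondoA and ChREBP. It had 1370, 1379, 1187 and 1373 CPM with cyclocreatine, against 548, 520.3, 526 and 533 CPM with vehicle (log2 fold change 1.32 ± 0.04, adjusted p = 3.25e-25). Replicate 3 was the lowest of the cyclocreatine libraries and still more than any vehicle library. ARRDC4, a related arrestin under the same control, rose 1.54-fold and ARRDC3 2.38-fold. Of the 29 genes of MondoA, FOXO and energy stress, 12 rose and 13 fell. FOXO1 (10.3 and 5.98 CPM with cyclocreatine and vehicle) and the sestrins SESN1 (1.253-fold) and SESN3 were higher. Lower were the regulatory subunits of AMP-activated kinase PRKAB1 (1.31-fold) and PRKAG2 (1.83-fold), its upstream kinase STK11 (1.18-fold), the insulin receptor INSR (1.48-fold) and the coactivator PPARGC1B (1.56-fold).

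The TXNIP promoter, shown because it carries the element that MondoA and ChREBP read, lies at chr1:145996580-145996829 on the minus strand of GRCh38.p14 in RefSeq. The carbohydrate response element begins 88 bases before the start and is in capitals.
TXNIP: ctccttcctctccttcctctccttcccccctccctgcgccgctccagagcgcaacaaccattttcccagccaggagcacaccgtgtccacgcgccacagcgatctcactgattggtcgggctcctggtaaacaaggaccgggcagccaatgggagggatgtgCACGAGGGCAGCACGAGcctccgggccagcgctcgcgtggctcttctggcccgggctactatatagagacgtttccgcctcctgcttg
On both strands it was found in 0.806% of all promoters of this length. Of the 29 genes of the list it was in TXNIP and in MLXIPL, the gene of ChREBP, which did not pass (log2 fold change 0.07 ± 0.66). ARRDC4 rose and had no match in this window.

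Glycolysis genes were mostly lower. Of 27 tested 16 fell and 2 rose, with a median of -0.20. SLC16A3, the lactate exporter MCT4, had 95.7, 91.1, 82.3 and 94.2 CPM with cyclocreatine, against 187, 190.5, 189 and 183 CPM with vehicle. HK2, a hexokinase that starts glycolysis, had 106, 112, 112 and 101 CPM with cyclocreatine, against 161, 163, 149.8 and 163 CPM with vehicle. Neither gene overlapped between groups. The bifunctional regulators PFKFB4 (1.95-fold) and PFKFB3 (1.26-fold), the neuronal enolase ENO2 (1.90-fold) and the platelet phosphofructokinase PFKP (1.29-fold) fell. PKM (1.17-fold) rose, and LDHB (1.06-fold, adjusted p = 0.0363) passed in the fit of all libraries but not without any 1 of cyclocreatine replicates 1, 2 and 4 or vehicle replicates 1, 3 and 4, which left PKM as the single member called higher. Hypoxia-response genes had 8 of 24 lower and 3 higher. BHLHE40 (2.11-fold), the oxygen sensors EGLN1 (1.62-fold) and EGLN3 (1.97-fold) and the mitophagy receptor BNIP3 (1.62-fold) fell, while HIF1A (1.22-fold), the demethylase KDM3A (1.19-fold) and DDIT4 (1.57-fold) rose.

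Genes that shuttle adenine nucleotides had 10 of 24 lower and 6 higher. AK4, a mitochondrial adenylate kinase, had 101, 105, 119.6 and 107 CPM with cyclocreatine, against 187, 183, 175 and 192 CPM with vehicle. The AMP deaminases AMPD2 and AMPD3 fell 1.16-fold and 1.251-fold, and the nucleotidase NT5C2 1.26-fold. Higher were the nucleoside diphosphate kinase NME4 (1.19-fold), the nucleotidase NT5C (1.247-fold) and adenosine deaminase ADA (7.97 and 5.20 CPM with cyclocreatine and vehicle). The count of higher members was 3 without cyclocreatine replicate 1 or 2 or vehicle replicate 2 or 4, and with library totals alone. In the tricarboxylic acid cycle and its entry steps 10 of 27 rose and 5 fell. SDHD (1.16-fold), DLAT (1.13-fold) and FH (1.10-fold) were among those that fell, while SDHA (1.298-fold), SUCLG2 (1.41-fold), SDHB (1.21-fold) and DLST (1.21-fold) rose. Of 78 nuclear genes of oxidative phosphorylation 25 were higher and 3 lower, with a median of 0.07. The complex III core subunit UQCRC2 (1.27-fold) and the complex I subunit NDUFS4 (1.47-fold) rose, and ATP5G1 (1.31-fold), SDHD and cytochrome c, CYCS (1.13-fold), fell. Without cyclocreatine replicate 4, 5 members were lower, and with library totals alone 10.

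Cholesterol synthesis genes rose. Of 26 tested 16 were higher and 3 lower, with a median of 0.26. MSMO1, a sterol methyl oxidase, had 74.0, 73.8, 62.5 and 66.9 CPM with cyclocreatine, against 37.1, 34.2, 31.3 and 33.8 CPM with vehicle. HMGCS1, a synthase early in the pathway, had 311, 316, 290.1 and 310 CPM with cyclocreatine, against 189, 194, 193 and 197 CPM with vehicle. In each the groups were separate. The mevalonate kinase MVK (1.83-fold), squalene synthase FDFT1 (1.43-fold) and the sterol sensor's transcription factor SREBF2 (1.19-fold) rose. PMVK (-0.28) and LSS (-0.14 on the log2 scale) were among those that fell. The PMVK change was not called without vehicle replicate 1.

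SREBF2 is shown because its promoter holds the core of the sterol regulatory element, CACCCCAC, in capitals, through which its product acts on its own gene. The window lies at chr22:41832855-41833104 on the plus strand of GRCh38.p14 in RefSeq, and the core begins 132 bases before the start.
SREBF2: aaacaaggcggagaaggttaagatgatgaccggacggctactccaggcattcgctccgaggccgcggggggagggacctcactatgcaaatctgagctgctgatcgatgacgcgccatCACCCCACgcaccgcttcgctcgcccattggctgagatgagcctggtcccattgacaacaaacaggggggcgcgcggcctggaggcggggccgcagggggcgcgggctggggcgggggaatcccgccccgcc
Searched on both strands, the letters were in 646 of all promoters (2.37%) and in 1 of the 19 members with a promoter in the table.

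Fatty acid genes had no common direction and were called at about the shares over all genes. SREBF1, the factor that drives them, had 124, 121, 129 and 129 CPM with cyclocreatine, against 231, 234, 245 and 233 CPM with vehicle. The desaturases FADS2 (1.28-fold) and FADS1 (1.22-fold), the elongase ELOVL6 (1.27-fold) and the synthase FASN (1.08-fold) fell, and the elongase ELOVL5 (1.17-fold), the desaturase SCD (1.18-fold) and ACSS2 (1.09-fold) rose, 5 and 3 of 18. The ACSS2 groups overlapped, and its call was lost under 6 of the 15 alternatives, 4 of them with 1 library left out. In the Kennedy pathway, which builds the choline and ethanolamine phospholipids, 7 of 16 fell and 2 rose. ETNK1, ethanolamine kinase, had 42.4, 43.3, 49.6 and 39.3 CPM with cyclocreatine, against 117, 119, 107 and 118 CPM with vehicle, and together with CHKA the entry kinases of both branches were lower. PTDSS2, a phosphatidylserine synthase, fell 1.68-fold and PCYT2, the next ethanolamine step, 1.52-fold. The choline transporter SLC44A1 (1.48-fold) and PEMT (1.29-fold), which methylates phosphatidylethanolamine, rose.

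SAT1, the acetyltransferase that breaks down polyamines, had 219, 213, 189.5 and 209 CPM with cyclocreatine, against 93.2, 92.5, 95.7 and 95.2 CPM with vehicle. AZIN1, an inhibitor of antizyme, fell 1.65-fold, the rate-limiting enzyme ODC1 1.22-fold and OAT, which links ornithine to proline, 1.55-fold, while AMD1 rose 1.23-fold. Over the 25 genes of arginine, proline and polyamines 8 rose and 7 fell. Among 22 serine and one-carbon genes 5 rose and 9 fell. SHMT2 (1.33-fold) and PSAT1 (1.17-fold) rose and CBS (1.73-fold), MAT2A (1.28-fold) and MTHFD2L (1.71-fold) fell. Among 39 amino acid and integrated stress response genes 11 rose and 10 fell, near the shares over all genes. DDIT3 (CHOP), the stress factor, had 27.6, 26.4, 21.5 and 25.01 CPM with cyclocreatine, against 16.6, 12.3, 14.1 and 15.1 CPM with vehicle, while TRIB3 (1.54-fold), ATF5 (1.55-fold) and PPP1R15A (1.51-fold) and the glutamine carrier SLC1A5 (1.52-fold) fell.

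Endoplasmic reticulum chaperones rose by small amounts. Of 20 genes of the unfolded protein response 12 were higher and 1 lower (median 0.15). HSPA5, the chaperone BiP, had 680.5, 672, 648 and 679.6 CPM with cyclocreatine, against 489.9, 488, 494 and 479.9 CPM with vehicle, without overlap. PDIA4 (1.44-fold), XBP1 (1.23-fold), HYOU1 (1.23-fold) and HERPUD1 (1.255-fold) rose and SDF2L1 (1.33-fold) fell. Heat shock genes had 5 of 16 higher and 4 lower, near the shares over all genes. HSPA1A (1.47-fold) and HSPA1B (1.43-fold), near-identical inducible genes, fell, and so did HSPA6 (1.88-fold). HSPA4 (1.15-fold) and HSP90AA1 (1.11-fold) rose.

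Among metallothionein and zinc response genes, whose metallothioneins bind zinc and copper, 3 of 7 tested members rose and 0 fell. MT2A had 91.0, 98.2, 81.9 and 92.4 CPM with cyclocreatine, against 47.8, 47.5, 44.8 and 42.0 CPM with vehicle, and MT1X 25.8, 27.4, 22.4 and 24.0 CPM with cyclocreatine, against 11.1, 11.4, 11.3 and 14.5 CPM with vehicle. The groups did not overlap in either, and MT1F rose 1.601-fold. Members of this family share sequence. Of 23 histone genes 10 rose and 1 fell, with a median of 0.55. Those that rose included members of the histone clusters that can give polyadenylated messages, HIST2H2BE with 8.20, 7.32, 7.13 and 8.46 CPM with cyclocreatine, against 2.75, 1.999, 2.16 and 2.31 CPM with vehicle, HIST1H2BK (1.65-fold), HIST1H2BD (1.83-fold) and HIST1H2BJ (2.53-fold). The linker histone H1F0 fell to 1.67 ± 0.275 CPM with cyclocreatine, against 6.63 ± 0.436 CPM with vehicle, and without cyclocreatine replicate 1 the count of lower members was 2.

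Among inflammatory genes 9 of 21 tested rose and 4 fell. CXCL8, the neutrophil chemokine, had 67.8, 73.6, 66.0 and 76.0 CPM with cyclocreatine, against 31.1, 28.6, 30.0 and 32.3 CPM with vehicle, and the NF-kB subunits NFKB2 (1.74-fold), RELB (log2 fold change 0.68) and NFKB1 (1.254-fold), the inhibitor NFKBIA (1.35-fold) and the cytokine IL1B (1.43-fold) rose. ICAM1 (1.42-fold), CCL2 (1.46-fold), TRAF1 (1.94-fold) and CD83 (1.18-fold) fell, CD83 not being called without cyclocreatine replicate 3 or vehicle replicate 1. Interferon genes had 4 of 31 higher and 4 lower, both below the background share, with GBP2 (37.3 and 16.3 CPM with cyclocreatine and vehicle) and STAT2 (67.7 and 48.1) higher and IFITM1 (8.32 and 15.6) and IFI27 (2.72 and 4.48) lower. NRF2 targets had 7 of 25 higher and 5 lower (8 lower with library totals alone), near the shares over all genes. AKR1C1 and the cystine carrier SLC7A11 (1.51-fold) were among the higher and SRXN1 (1.86-fold) and TXNRD1 (1.11-fold) among the lower. In the BCL2 family the death-promoting genes went opposite ways: BAX (1.28-fold) and BBC3 (1.304-fold) rose, and BAK1 (1.32-fold), BID (1.14-fold), BAD (1.34-fold) and the survival genes BCL2L1 and BCL2L2 (1.496-fold) fell, 2 and 5 of 15.

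The response of UT-7 was then set against those of TF-1 and UCSD-AML1 by testing the difference of the log2 fold changes in the same model. It differed from that of TF-1 in 1922 genes with a more positive change in UT-7 (13.2% of those tested) and 2089 with a more negative one (14.3%), and from that of UCSD-AML1 in 1671 (11.5%) and 1679 (11.5%). With library totals alone the split against TF-1 was 2308 and 1638. A difference from both lines in the direction of the UT-7 change, at 5 CPM or more in UT-7, was found in 456 genes that rose (3.13%) and 487 that fell (3.34%).

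**Figure D4:**
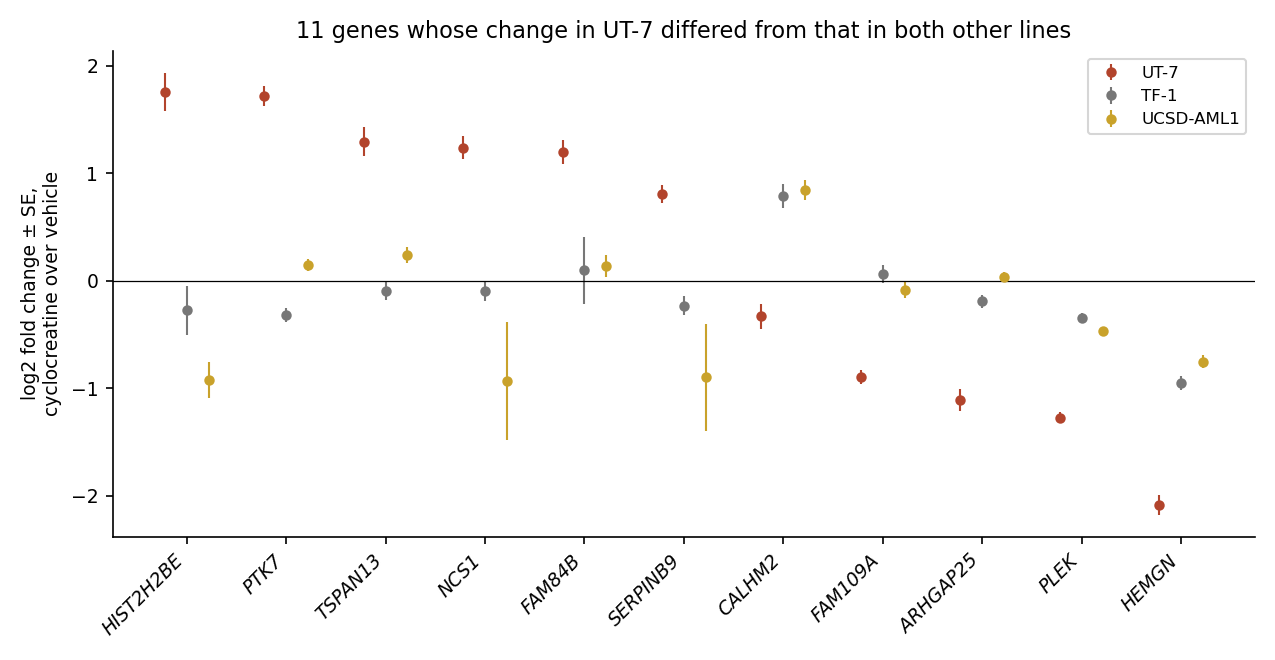
Log2 fold change (cyclocreatine over vehicle) with its SE in UT-7, TF-1 and UCSD-AML1 for 11 genes, 6 higher and 5 lower in UT-7, among those with the largest difference from both other lines. For HIST2H2BE, PTK7 and the 4 other genes of the first 6 the UT-7 point lies above those of both other lines. For HEMGN, PLEK and the 3 others it lies below them.

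The genes that stood out most from both lines included PTK7, whose log2 fold change was 1.72 ± 0.09 in UT-7, -0.32 ± 0.07 in TF-1 and 0.15 ± 0.05 in UCSD-AML1 (differences 2.04 ± 0.12 and 1.57 ± 0.11, adjusted p = 5.10e-16 and 8.88e-14). NCS1, a neuronal calcium sensor, had 19.99 ± 2.41 CPM with cyclocreatine and 8.44 ± 0.938 CPM with vehicle in UT-7, and its change of 1.24 ± 0.11 compares with -0.10 ± 0.09 in TF-1 and -0.94 ± 0.55 in UCSD-AML1. TSPAN13, SERPINB9, an inhibitor of granzyme B, and FAM84B exceeded both lines by 1.39 and 1.06, 1.04 and 1.71, and 1.10 and 1.07 on the log2 scale against TF-1 and UCSD-AML1. The rise of SERPINB9 in UT-7 itself was 0.81 ± 0.09, smaller than either of its differences. HEMGN fell in every line, by -2.08 ± 0.09 in UT-7, -0.95 ± 0.06 in TF-1 and -0.75 ± 0.06 in UCSD-AML1, and fell more in UT-7 (adjusted p = 1.35e-09 and 5.34e-12). PLEK (-1.27 ± 0.05 in UT-7, -0.35 ± 0.05 in TF-1, -0.47 ± 0.04 in UCSD-AML1) also fell more in UT-7 (adjusted p = 1.10e-12 and 2.85e-12). ARHGAP25, FAM109A and CALHM2 were the others drawn on the lower side. CALHM2 changed by only -0.33 ± 0.12 in UT-7 itself, against differences of -1.12 and -1.18, which thus rest mostly on the other lines. It was not called in UT-7 without cyclocreatine replicate 1 or 4 or vehicle replicate 1 or 2.

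The same test was counted over the gene groups, beside the shares over all genes given above, and only some of the groups are given here. In G1/S genes the UT-7 change was below that of TF-1 in 32 of 44 members and above it in 1, and below that of UCSD-AML1 in 29 and above it in 0, with median differences of -0.32 and -0.28. MCM3, for example, changed by -0.65 ± 0.03 in UT-7, -0.21 ± 0.03 in TF-1 and 0.02 ± 0.03 in UCSD-AML1. In G2/M genes 17 of 36 members were above TF-1 and 2 below it, and 29 above UCSD-AML1 and 0 below it, and CCNB1 changed by 0.46 ± 0.04, 0.14 ± 0.04 and 0.05 ± 0.04 in the same order of lines. Cholesterol genes were above TF-1 in 16 of 26 and above UCSD-AML1 in 14, with 0 and 1 below, and MSMO1 changed by 1.02 ± 0.06, 0.25 ± 0.06 and 0.22 ± 0.06. MYC and ribosome biogenesis genes were below TF-1 in 24 of 35 and below UCSD-AML1 in 14, with 2 and 3 above. In ribosomal protein genes 67 of 77 members were below TF-1 and 0 above it, and 3 were above UCSD-AML1 and 0 below it. Unfolded protein response genes were above UCSD-AML1 in 15 of 20 members and below it in 0. Against TF-1, 5 of them were above and 3 below, with a median difference of 0.0129, against 0.00351 over all genes. The median difference of each of these lists kept its sign under both other scalings. Scaling moves all genes nearly alike, so medians far from 0 could not have turned and the check says little about them. The median over all genes lay between 0.00351 and 0.0451 against TF-1 and between -0.0233 and 0.00603 against UCSD-AML1. The median change of JAK-STAT targets was -0.50 in UT-7, -0.59 in TF-1 and -0.08 in UCSD-AML1. For megakaryocyte genes it was -0.36, -0.35 and -0.51, and for MAP kinase and immediate early genes -0.40, -0.32 and -0.21. Of 39 integrated stress response genes 18 were above TF-1 and 1 below, and 4 were above UCSD-AML1 and 10 below. Of 78 oxidative phosphorylation genes 30 were below TF-1 and 0 above, and 4 were above UCSD-AML1 and 2 below.

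**Figure D5:**
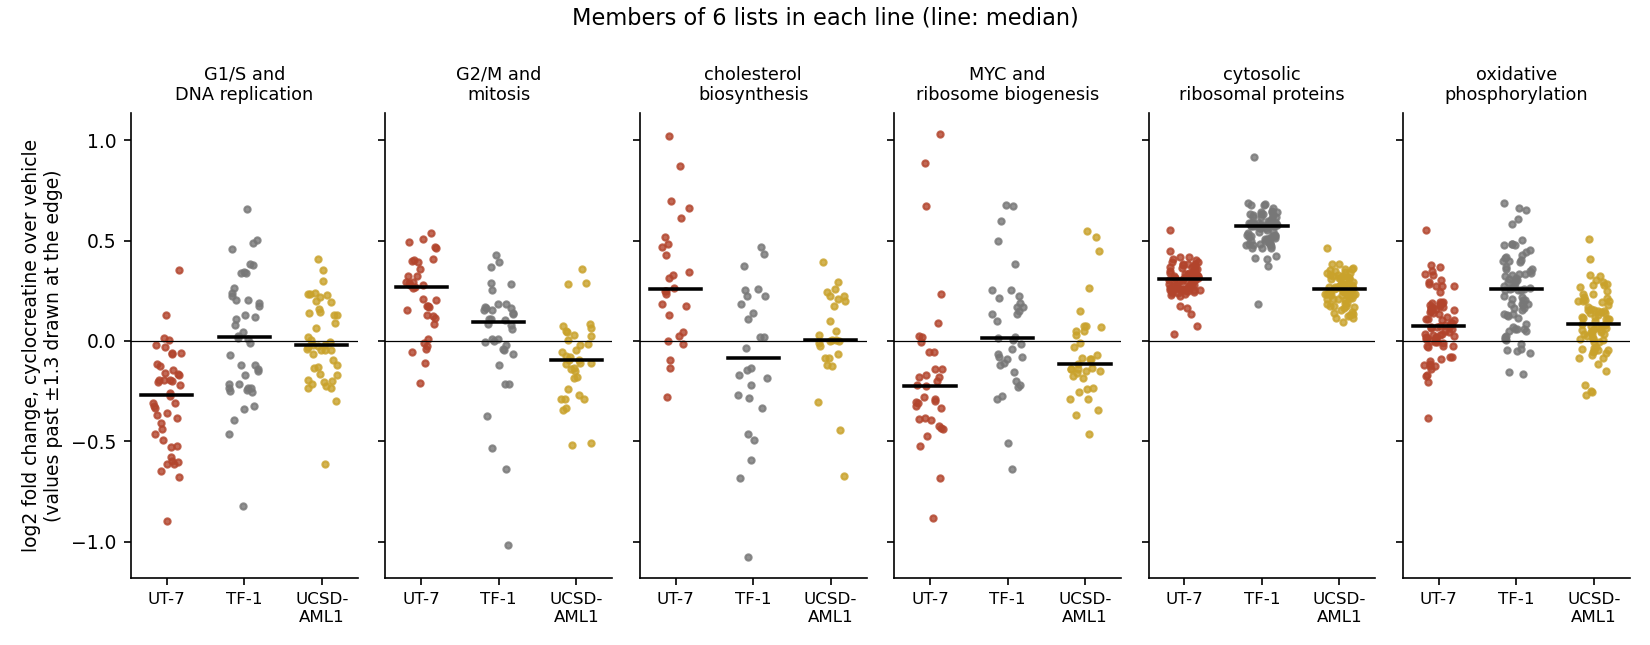
Log2 fold change (cyclocreatine over vehicle) of the members of 6 gene lists in UT-7, TF-1 and UCSD-AML1, 1 point per gene, with a tick at each median. G1/S members sit lowest and cholesterol and G2/M members highest in UT-7, while ribosomal protein members sit highest in TF-1.

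Other genes named above changed in more than 1 line. CKB fell more in UT-7 than in UCSD-AML1, by -0.28 ± 0.08 on the log2 scale (adjusted p = 0.00871), and its difference of -0.19 ± 0.08 from TF-1 did not pass (adjusted p = 0.0618). SLC6A8 differed by -0.42 ± 0.21 from TF-1 and 0.81 ± 0.41 from UCSD-AML1 (adjusted p = 0.164 and 0.176). KLF2 rose in UT-7 and in UCSD-AML1 (6.70 ± 0.15), more so there (difference -1.34 ± 0.42), and its change in TF-1 did not pass (0.66 ± 0.33). CHKA and SAT1 changed more in TF-1 (-2.16 ± 0.05 and 1.88 ± 0.06) than in UT-7 (-1.64 ± 0.05 and 1.14 ± 0.06), with adjusted p = 2.96e-06 and 1.68e-08 for the differences. SOCS3 fell in UT-7 and TF-1 (-1.16 ± 0.07 and -0.38 ± 0.07) and rose in UCSD-AML1 (0.35 ± 0.08). TXNIP rose in all 3 lines, by 1.32 ± 0.04 in UT-7, 0.79 ± 0.04 in TF-1 and 1.18 ± 0.04 in UCSD-AML1, and the difference from UCSD-AML1 did not pass (adjusted p = 0.0743).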

How the data were processed

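RNA of UT-7, TF-1 and UCSD-AML1 cells was extracted with a column kit and sequenced on an Illumina HiSeq, per the labels' protocols. The authors deposited raw read counts per RefSeq gene symbol, 1 table per library, as whole numbers. FastQC, TopHat2, RSEM, GRCh37 and hg19 are named, without versions, in the submitters' processing notes. The roles of these tools and the strand of the libraries are not stated there, and reads that fit several copies of a gene may have been split or dropped.

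From the counts, 14588 of 25728 genes passed filterByExpr (at least 10 counts in 4 libraries' worth of samples, 15 in all) and held 99.93% to 99.95% of the counts of each library. A model of 6 group means over all 24 libraries was fitted with edgeR 4.0.16 (R 4.3.3, TMM factors, robust quasi-likelihood, 18 residual degrees of freedom, median biological coefficient of variation 0.0578). Contrasts were cyclocreatine minus vehicle in UT-7, and that effect minus the effect in each other line, with both directions tested, and p-values adjusted over all genes by Benjamini-Hochberg and called under 0.05. Each SE was derived as the absolute log2 fold change divided by the root of its F statistic. The procedure was tested on simulated data. Values with ± are means and SDs of 4 libraries, or log2 fold changes and SEs. Alternatives used limma 3.58.1 and DESeq2 1.42.0, and figures were drawn with matplotlib 3.10.9 in Python 3.11.15.

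Gene groups and the rule for genes named were chosen with earlier results of these data known. The rule names, in UT-7, the 15 largest fold changes per direction at a mean of 5 CPM or more with separate groups, the 8 largest CPM differences, the 6 largest differences from both other lines, up to 4 members per list with the smallest p at 1 CPM or more, the creatine genes, MECOM and the KLF and NR4A members. It gave 208 genes, and 91 more were added after their values were seen, and 13 of them all are not reported here. All 43 lists were counted. Promoters are the 250 bases before RefSeq starts in GRCh38.p14, a different build from the counts, and were used for sequence only.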

Additional observations from a re-analysis of the deposited data

Results flagged for a closer look

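Within a group of 4 libraries, a library was noted where its gap to the nearest other exceeded Dixon's 95% critical share of the group's range. That held in 34 of 572 groups examined (286 genes, 5.94%), and chance gives about 1 in 20. In the cyclocreatine group replicate 3 stood apart in 11 genes. It was low for CDKN1B (82.9 CPM), DUSP1 (4.97), FCER2 (51.7), FDFT1 (664), HMOX1 (3.53), IL2RG (97.5), NKG7 (0.576), TXNIP (1187), HBG1 (1184) and HBG2 (492.6), and high for SPN (835). Cyclocreatine replicate 1 stood apart for MXD4 (54.0 CPM), SLC38A2 (355), TMCC2 (55.3) and TXNRD1 (161), replicate 2 for GATM (0.231), and replicate 4 for SLBP (88.5). In the vehicle group replicate 1 stood apart for CSF2RA (17.5 CPM), KLF11 (43.0), OSM (64.3) and PTDSS2 (37.6), and replicate 2 for PSMB8 (20.6). Vehicle replicate 3 did so for ETNK1 (107 CPM), ETV4 (21.1), GCLC (61.2), HK2 (149.8), PIM2 (187) and UROS (51.8). Vehicle replicate 4 did so for HIST1H2BK (17.3 CPM), LINC00657 (717), MT1X (14.5), PECAM1 (46.5), RPS23 (1084) and STAT5B (330.1). The groups of SPN and TXNIP do not overlap with or without cyclocreatine replicate 3.

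The response differed between lines by a test of the difference in 1922 and 2089 genes against TF-1 and in 1671 and 1679 against UCSD-AML1, more positive and more negative in UT-7. For 11 genes among those with the largest difference from both, the log2 differences from TF-1 and UCSD-AML1 were 2.03 and 2.68 for HIST2H2BE, 2.04 and 1.57 for PTK7, 1.39 and 1.06 for TSPAN13. They were 1.34 and 2.17 for NCS1, 1.10 and 1.07 for FAM84B, and 1.04 and 1.71 for SERPINB9. For the 5 genes lower in UT-7 they were -1.13 and -1.33 for HEMGN, -1.12 and -1.18 for CALHM2, -0.92 and -0.80 for PLEK, -0.91 and -1.14 for ARHGAP25, and -0.96 and -0.81 for FAM109A.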

How the results depend on the processing

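The counts of genes called for the UT-7 effect and for its differences from TF-1 and UCSD-AML1 stayed within 1.5 times under the 15 alternatives. The UT-7 effect had 6709 called genes with median ratio scaling, 6734 with library totals alone, 6462 with no low-count filter, 6772 with DESeq2's Wald test, 6695 with limma-voom and 7801 with the UT-7 libraries fitted alone. Leaving out 1 library gave 6152 to 6302. The differences ranged from 3474 to 4145 (main 4011) against TF-1 and from 2934 to 4808 (main 3350) against UCSD-AML1. Of the 6689 genes called, 6039 to 6574 were called in the same direction under each alternative and 0 in the opposite one. No pairing by replicate number showed in the counts: the deviations of same-numbered libraries correlated at -0.0376, -0.000415, -0.133 and -0.0904 over 9935 genes. Differently numbered libraries ranged from -0.141 to 0.165, so this check cannot exclude a pairing. With the replicate block 6418 genes were called, and 3582 and 2982 for the differences.

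Of 286 named genes 253 kept direction and call under all 15 alternatives, 24 lost the call in at least 1 and 5 gained it. In 4 that were not called the sign turned. HBG2 (-0.05 on the log2 scale) ranged from -0.07375 to 0.01826 with 1 library left out, NKG7 (-0.10) from -0.2445 to 0.105, KLF12 (0.01) from -0.0159 to 0.04855 and PECAM1 (0.00) from -0.02667 to 0.02782. KLF12 was -0.02406 with library totals alone, and PECAM1 -0.005738 with median ratio scaling, -0.03354 with library totals alone, -0.003258 with no filter and -0.00583 with DESeq2. Changes close to the threshold (POLD3, ACSS2, FOS, KLF11, LDHB, GCLC, IRF7, BAG3, IER3 and WIPI1) were each lost under 6 to 11 of the 15 alternatives. The cause was not tested. Depth limits genes below about 1 CPM, where the cyclocreatine and vehicle libraries each hold few counts. The spread within groups of 4 libraries of unknown independence limits every p.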

Other observations

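Genes that move osmolytes and water went both ways in UT-7. Of 14 tested, 3 rose and 4 fell, near the shares over all genes (22.5% and 23.3%). SLC5A3, the inositol carrier that cells use against hypertonic stress, had 254, 274, 297 and 270.4 CPM with cyclocreatine, against 162, 156, 151 and 173 CPM with vehicle, and the groups were separate. NFAT5, the factor that controls it, averaged 58.8 ± 6.62 CPM with cyclocreatine and 40.3 ± 3.02 CPM with vehicle, and the amino acid carrier SLC38A2 rose 1.21-fold. The aquaglyceroporin AQP3 had 36.5, 40.6, 34.6 and 34.5 CPM with cyclocreatine, against 82.8, 90.2, 88.9 and 82.2 CPM with vehicle, again without overlap. The channel subunit LRRC8D (1.13-fold), AQP1 and the aldose reductase AKR1B1 (0.311 and 0.788 CPM with cyclocreatine and vehicle) were the others that fell, and AKR1B1 was not called without cyclocreatine replicate 4 or vehicle replicate 2. The taurine carrier SLC6A6 did not pass, with 98.8 ± 4.95 CPM with cyclocreatine and 99.9 ± 2.61 CPM with vehicle. Of 12 genes of phosphate transport and sensing 3 rose and 2 fell, also near those shares. XPR1, the phosphate exporter, had 174, 184, 198 and 182 CPM with cyclocreatine, against 133, 133, 135 and 142 CPM with vehicle, and the importer SLC20A2 and the inositol phosphate kinase IP6K2 rose 1.23-fold and 1.18-fold. SLC37A1, a sugar phosphate exchanger, fell 1.88-fold and the importer SLC20A1 1.09-fold.

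Autophagy and lysosome genes had 8 of 28 tested members higher and 3 lower, and 5 lower without vehicle replicate 2. SQSTM1, the autophagy receptor p62, had 157, 158, 153 and 154 CPM with cyclocreatine, against 225, 236, 241 and 236 CPM with vehicle. The sialidase NEU1 (1.46-fold), the protease CTSL (1.31-fold), the sterol carriers NPC1 (1.37-fold) and NPC2 (1.28-fold) and the membrane protein LAMP1 (1.21-fold) rose. HEXA (1.12-fold) and WIPI1 (1.254-fold) were the other members called lower. The WIPI1 groups overlapped, and its call (adjusted p = 0.047) was lost under 9 of the 15 alternatives, 6 of them with 1 library left out. Among antigen presentation genes HLA-B averaged 3.62 ± 0.611 CPM with cyclocreatine and 2.33 ± 0.447 CPM with vehicle. HLA-B, HLA-E (1.37-fold) and HLA-DRA (2.35 and 1.53 CPM with cyclocreatine and vehicle) were among those that rose, while the immunoproteasome subunit PSMB8 (10.5 and 18.3) and the peptide carrier TAP1 (4.10 and 6.01) fell, 4 and 2 of 21, both below the shares over all genes. Reads of these polymorphic genes may be lost or shared.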
